A study of Xenopus laevis with 40 samples.

Results

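The core planar cell polarity genes looked for here were vangl1, vangl2, prickle1, prickle2, prickle3, celsr1, celsr2 and celsr3, in every copy found among the 51017 gene IDs of the count tables. Xenopus laevis is an allotetraploid frog that keeps many genes as an L and an S copy, named for its subgenomes. Of the 8 symbols, 7 were found, in 12 copies. The deposited symbol table names 10 of these: vangl1.L (gene20499), vangl1.S (gene2341), vangl2.L (gene20542), vangl2.S (gene19284), prickle1.L (gene35061), prickle1.S (gene12046), prickle2.L (gene7938), prickle2.S (gene16719), prickle3.L (gene49818) and celsr2.L (gene37950). The other 2, celsr1.L (gene38708) and celsr1.S (gene35639), carry provisional symbols there and were named through their RefSeq gene IDs, and celsr3 was not found. All 12 copies passed the filter on low counts.

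Planar cell polarity is the alignment of cells within the plane of an epithelium. In flies and vertebrates the Celsr (Flamingo) cadherins bridge neighbouring cells, while Vangl with Prickle and Frizzled with Dishevelled gather at opposite sides of each cell, and Wnt ligands can orient the axis. In the frog embryo the pathway is known for convergent extension during gastrulation and neurulation, and for the orientation of ciliary beating in the multiciliated cells of the larval epidermis.

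RNA was measured by sequencing of poly-A RNA in epidermis grown from animal caps, the prospective ectoderm of the blastula, which were cut from embryos of wild-type genotype at stage 8 and cultured in saline. The 40 libraries form 20 groups of 2, with 5 treatments at each of st10.5, st16, st25 and st32 (st, developmental stage), and the 2 libraries of a group come from 2 experiments, each on embryos of another female and another fertilization. Controls were not injected. The other embryos received 4 injections into the animal hemisphere at the 4-cell stage, with nicd mRNA (Notch intracellular domain, Notch gain) at 120 ng/ul, suh-dbm mRNA (Notch loss) at 100 ng/ul, suh-dbm with dnmcidas mRNA (dominant-negative multicilin) at 100 ng/ul each, or foxa1MO, a morpholino against the start codon of foxa1, at 3 pmol. No group received a control injection, so the reagent and the act of injecting cannot be told apart in comparisons with the controls. The comparison of suh-dbm+dnmcidas with suh-dbm has injected embryos on both sides. Its embryos with dnmcidas received a further mRNA, so dnmcidas and a larger amount of mRNA cannot be told apart there.

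The libraries held 20177357 to 99359750 counted reads. Reads on the genes of the injected mRNAs were above both controls of the stage in 16 of 16 checks; a morpholino that blocks translation is not checked by RNA. Markers of multiciliated cells summed to 662 to 686 CPM (counts per 1000000 counted reads) in the controls of st25, and ionocyte markers to 1620 to 1869 CPM, so the differentiated cells of this epidermis were present in these caps. Levels are given as CPM of the library total as counted, while log2 changes come from the fit, which also scales each library by a trimmed-mean (TMM) factor. These factors were 1.12 to 1.23 at st10.5 and 0.822 to 1.12 later, so a log2 change can differ from the ratio of the CPM. The scaling added 0.38 on the log2 scale to the control step from st10.5 to st16, and took off 0.25 for suh-dbm+dnmcidas against control and 0.27 against suh-dbm at st25. Statements on overlap refer to CPM; in 43 of 276 pairs of a copy and a comparison the scaling changed whether the groups overlapped, and in 0 of them did the groups change sides. CPM values of different genes or copies are not compared with each other, since gene lengths of the counting annotation were not used. The L and S copies are close in sequence, and how reads that fit both were assigned is not given in the sources used here, so the split of reads between the copies of a gene is uncertain. A copy is called changed where its adjusted p, from edgeR's quasi-likelihood test with Benjamini-Hochberg adjustment over the 31648 genes tested, is under 0.05, and ± after a log2 value gives the standard error from the fit, with n = 2 libraries a group. Because caps hold several cell types, fewer cells that express a gene and less RNA per cell cannot be told apart.

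In uninjected caps the family changed most between st10.5 and st16, the interval from gastrula to neurula. Of the 12 copies, 5 rose and 3 fell, against 44.8% of all genes called in that step (22.2% higher and 22.6% lower). Both vangl1 copies, prickle2.L, prickle3.L and celsr1.S rose, and both prickle1 copies and vangl2.L fell. From st16 to st25 the 2 celsr1 copies fell, against 21.9% of all genes called (11.4% lower), and from st25 to st32 only prickle2.L passed the test and fell, against 1.44% of all genes (0.875% lower).

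**Figure D1:**
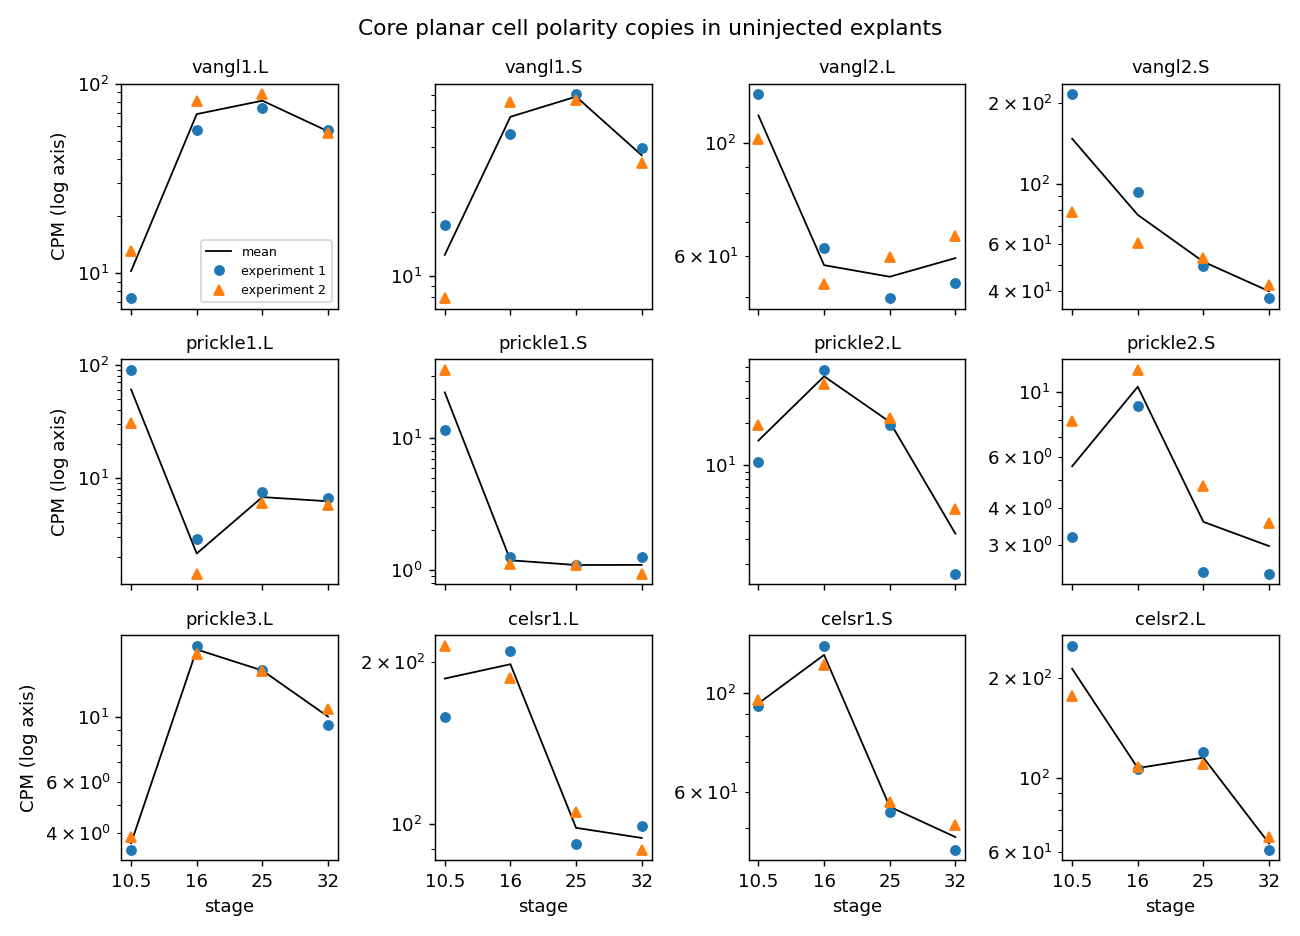
CPM (log axis) of the 12 copies in the uninjected libraries at st10.5, st16, st25 and st32, with a circle for experiment 1, a triangle for experiment 2 and a line through their mean. The vangl1 copies and prickle3.L lie lowest at st10.5, and the prickle1 copies lie highest there.

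Vangl proteins are 4-pass membrane proteins that bind Prickle. In the controls both vangl1 copies rose and vangl2.L fell between st10.5 and st16, while vangl2.S was not called. For vangl1.L, experiments 1 and 2 gave 7.34 and 13.1 CPM at st10.5, 57.1 and 81.2 at st16, 74.4 and 88.5 at st25, and 57.0 and 55.1 at st32. For vangl1.S they gave 17.3 and 7.88, then 46.1 and 65.2, 71.2 and 67.0, and 39.7 and 33.8 CPM. Both copies were low in both libraries of st10.5 and did not overlap with st16. The log2 rise to st16 was 3.13 ± 0.27 for vangl1.L (edgeR adjusted p = 4.12e-09) and 2.51 ± 0.48 for vangl1.S (edgeR adjusted p = 0.000164), and each stayed called without any single library.

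For vangl2.L the control values were 125 and 102 CPM at st10.5, 62.4 and 52.9 at st16, 49.6 and 59.8 at st25, and 53.2 and 65.8 at st32. The 2 libraries of st10.5 were above all later ones. The log2 change to st16 was -0.59 ± 0.22 (edgeR adjusted p = 0.0305), and the call was lost without the st10.5 library of experiment 1 (log2 change -0.37, edgeR adjusted p = 0.293) or the st16 library of experiment 2 (-0.40, edgeR adjusted p = 0.257). For vangl2.S the values were 216 and 78.4 CPM at st10.5, 93.3 and 60.3 at st16, 49.6 and 53.3 at st25, and 37.6 and 42.3 at st32. Here st10.5 and st16 overlapped, since experiment 2 at st10.5 lay below experiment 1 at st16. The log2 change was -0.54 ± 0.47 (edgeR adjusted p = 0.361), and it turned to 0.43 (edgeR adjusted p = 0.565) without the st10.5 library of experiment 1. A block for the experiment within each stage compares stages at the fitted level of experiment 1 only, which is not the change above. There the fall of vangl2.S to st16 was called (edgeR adjusted p = 0.00132), as were its falls to st25 (0.000138) and st32 (0.0269). The fall of vangl1.S from st25 to st32 was called there too (edgeR adjusted p = 0.0166).

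Prickle proteins are cytoplasmic LIM-domain partners of Vangl. For prickle1.L the control values fell from 90.5 and 30.6 CPM at st10.5 to 2.88 and 1.41 at st16, and were 7.52 and 6.0 at st25 and 6.70 and 5.71 at st32. For prickle1.S they fell from 11.5 and 33.3 CPM to 1.25 and 1.11, and were 1.08 and 1.10 at st25 and 1.25 and 0.927 at st32. Both copies were high at st10.5 in both experiments and did not overlap with st16. The log2 changes were -4.40 ± 0.86 for prickle1.L (edgeR adjusted p = 0.000192) and -3.85 ± 0.64 for prickle1.S (edgeR adjusted p = 2.82e-05), the largest falls among the 12 copies in that step.

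For prickle2.L the control values were 10.53 and 19.5 CPM at st10.5, 47.7 and 37.9 at st16, 19.2 and 21.5 at st25, and 1.69 and 4.86 at st32. The level was high at st16 and low at st32 in both experiments. The log2 rise to st16 was 1.91 ± 0.64 (edgeR adjusted p = 0.0173), and was not called without the library of experiment 1 at st10.5 (1.59, edgeR adjusted p = 0.140) or st16 (1.64, edgeR adjusted p = 0.0882). The log2 change from st25 to st32 was -2.74 ± 0.67 (edgeR adjusted p = 0.0375). It kept its direction and lost its call without any 1 of the 4 libraries, with log2 changes from -3.56 to -2.18 and edgeR adjusted p-values from 0.0645 to 0.513. The step from st16 to st25 was not called without a block (edgeR adjusted p = 0.193). With a block within each stage alone it was called (edgeR adjusted p = 0.0015), and that fit takes the step at the fitted level of experiment 1 only.

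The control values of prickle2.S were 3.19 and 7.95 CPM at st10.5, 8.94 and 11.95 at st16, 2.41 and 4.77 at st25, and 2.37 and 3.55 at st32. It was highest at st16 in both experiments, and no step was called (edgeR adjusted p = 0.0929, 0.062 and 0.887); with the experiment as a block the first 2 steps were called (edgeR adjusted p = 0.0183 and 0.0103). For prickle3.L the controls gave 3.50 and 3.89 CPM at st10.5, 17.5 and 16.5 at st16, 14.5 and 14.3 at st25, and 9.38 and 10.7 at st32. The experiments lay close together, and the log2 rise to st16 was 2.59 ± 0.40 (edgeR adjusted p = 1.27e-05), called without any single library as well.

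Celsr proteins are atypical cadherins of adjoining membranes. For celsr1.L the control values were 158 and 214 CPM at st10.5, 209 and 186 at st16, 91.8 and 105 at st25, and 99.1 and 89.6 at st32. For celsr1.S they were 93.4 and 96.4, then 128 and 116, 54.2 and 57.1, and 44.5 and 50.7 CPM. Both copies were lower at st25 than at st16 in both experiments, without overlap. The log2 change was -1.10 ± 0.33 for celsr1.L (edgeR adjusted p = 0.0162) and -1.23 ± 0.23 for celsr1.S (edgeR adjusted p = 0.000394). The step of celsr1.L to st16, a log2 change of 0.48, was not called without a block (edgeR adjusted p = 0.237). With the experiment as a block within each stage it was called (edgeR adjusted p = 0.000584). That fit takes the step at the fitted level of experiment 1 only, which is not the change of 0.48.

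From st16 to st25 the call of celsr1.L was lost without the st16 library of experiment 1 (log2 change -0.93). It was also lost without the st25 library of experiment 1 (-1.04) or 2 (-1.17). The call of celsr1.S was kept without any single library. Before that, celsr1.S rose by 0.75 ± 0.23 on the log2 scale to st16 (edgeR adjusted p = 0.00888), a call lost without the st16 library of experiment 1 (0.58, edgeR adjusted p = 0.0955). For celsr2.L the controls gave 250 and 176 CPM at st10.5, 106 and 108 at st16, 120 and 110 at st25, and 60.7 and 66.4 at st32. It was lower at st16 than st10.5 and at st32 than st25 in both experiments, and neither step passed (edgeR adjusted p = 0.0559 and 0.0697); both passed with the experiment as a block (edgeR adjusted p = 0.0268 and 0.023).

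The list of neural markers held copies of sox2, sox3, ncam1, neurog2 and elavl3. They summed to 463 to 1127 CPM in the controls of st10.5, 46.2 to 65.2 at st16, 6.05 to 7.70 at st25 and 0.888 to 1.56 at st32. Of the 8 copies, 4 were lower and 1 higher in the first step. The sum does not show whether neural tissue was present. Multiciliated markers went from 80.7 to 170 CPM at st10.5 to 801 to 894 at st16, with 12 of 14 tested copies higher and 2 lower. The part of either in the course of the polarity genes was not tested.

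Notch gain by nicd was the treatment with the most calls in the family. Of 48 copy-by-stage tests, 6 were called in the fit without a block for the experiment. With the experiment as a block 9 were called, and with a block within each stage 15. The calls by stage that follow here are those without a block. At st25, 4 of the 12 copies rose and none fell, against 12.3% of all genes called and 5.21% called higher. They were vangl2.L, prickle2.S, prickle3.L and celsr1.S. The median log2 change of the 12 copies was 0.49, beside 0 over all genes tested. At st10.5 none was called (0.0537% of all genes; 0 of the 12 at an unadjusted p under 0.05, and none by DESeq2), at st16 celsr1.S rose (9.93% of all genes called, 2.71% higher), and at st32 again celsr1.S alone (5.83%, with 1.78% higher), where the estimates of all 12 copies were above 0 and their median was 0.64.

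**Figure D2:**
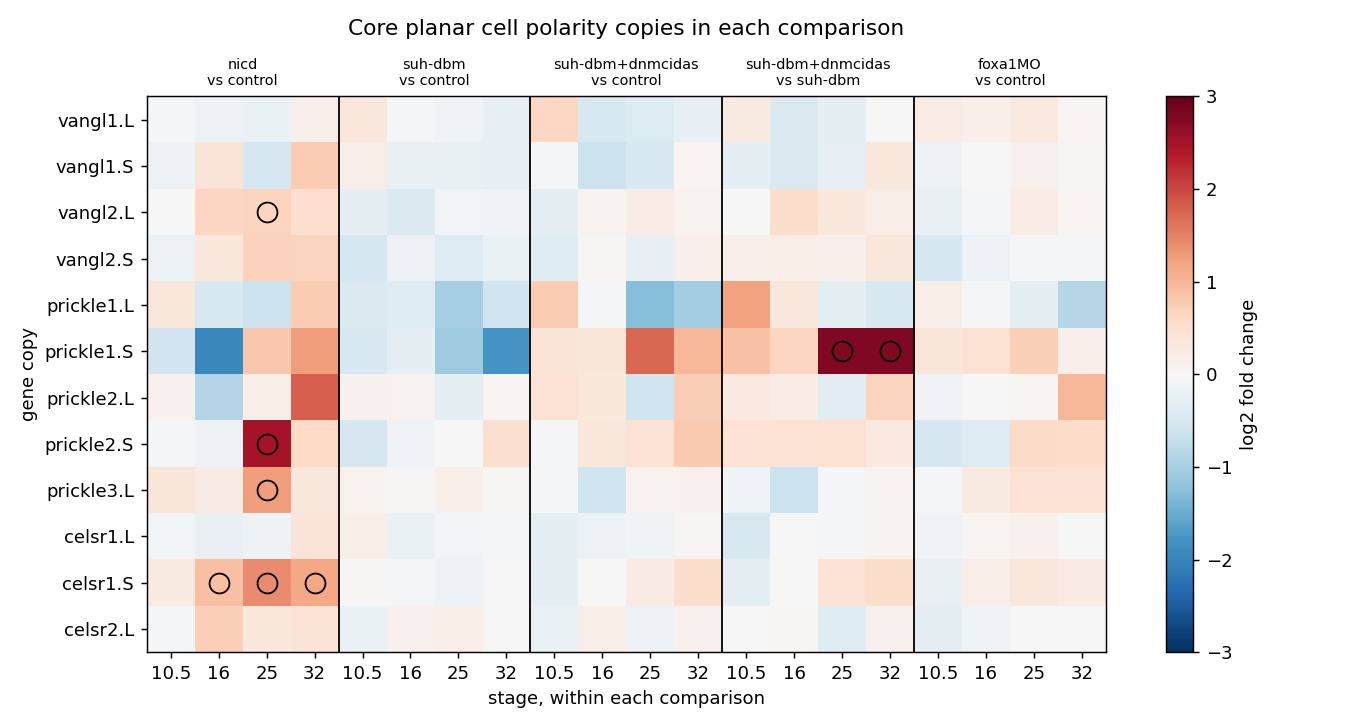
Log2 fold change (colour) of the 12 copies in 5 comparisons at st10.5, st16, st25 and st32, with a ring on each copy called by edgeR at an adjusted p under 0.05. The 6 rings under nicd are all rises, and the 2 rings on prickle1.S are at st25 and st32 of suh-dbm+dnmcidas against suh-dbm.

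The copy with the most called stages was celsr1.S. With nicd, experiments 1 and 2 gave 104 and 136 CPM at st10.5 (controls 93.4 and 96.4), 261 and 208 at st16 (controls 128 and 116), 153 and 144 at st25 (controls 54.2 and 57.1) and 114 and 101 at st32 (controls 44.5 and 50.7). From st16 on, both nicd libraries were far above both controls, and at st10.5 they were above them by a smaller margin. The log2 rise was 0.90 ± 0.23 at st16 (edgeR adjusted p = 0.01), 1.42 ± 0.23 at st25 (edgeR adjusted p = 8.72e-05) and 1.16 ± 0.23 at st32 (edgeR adjusted p = 0.00124).

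The calls at st25 and st32 were kept without any 1 of their 4 libraries. The call at st16 was lost without the control of experiment 2 (log2 rise 0.75, edgeR adjusted p = 0.145), without the nicd library of experiment 1 (0.65, edgeR adjusted p = 0.2), or when only the libraries of that stage were fitted (edgeR adjusted p = 0.095). The rise at st25 exceeded the change at st10.5, which was 0.28 ± 0.22, by 1.14 ± 0.32 on the log2 scale (edgeR interaction test, adjusted p = 0.0389, against 4.19% of all genes called in that test, 1.43% higher). This difference between stages was near the threshold: its adjusted p was 0.0977 with relative log expression (RLE) factors and 0.104 when genes with as little as 1 count were kept, and leaving out 1 of 8 libraries ended the call for 6 of them, the 4 controls and the nicd libraries of experiment 1 (edgeR adjusted p from 0.0948 to 0.219, log2 difference from 0.92 to 1.14).

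For celsr1.L with nicd the values were 162 and 203 CPM at st10.5, 208 and 145 at st16, 71.4 and 107 at st25, and 137 and 112 at st32. They overlapped the controls at the first 3 stages and lay above them at st32. The log2 change at st25 was -0.15 ± 0.32, with a 95% interval from -0.81 to 0.52, beside 0.95 to 1.90 for celsr1.S; the difference between the copies was not tested. With the reads of both copies summed, celsr1 changed by 0.61 ± 0.26 on the log2 scale at st25 (edgeR adjusted p = 0.133), which was not called. The summed changes at st16 (0.30 ± 0.26, edgeR adjusted p = 0.595) and st32 (0.65 ± 0.26, edgeR adjusted p = 0.17) were not called either. Nor was the summed difference between st25 and st10.5 (0.57 ± 0.36, edgeR interaction test, adjusted p = 0.513).

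For prickle2.S, the nicd libraries gave 2.42 and 8.54 CPM at st10.5, 2.87 and 17.1 at st16, 20.2 and 19.6 at st25, and 2.54 and 6.43 at st32. Only at st25 did both lie above both controls, which were 2.41 and 4.77 CPM, and at st16 the 2 nicd libraries lay on either side of the controls of 8.94 and 11.95. The log2 rise at st25 was 2.49 ± 0.64 (edgeR adjusted p = 0.0101). It was not called without the control of experiment 1 (2.10, edgeR adjusted p = 0.139) or the nicd library of experiment 1 (2.43, edgeR adjusted p = 0.0547). With the reads of both prickle2 copies summed, the log2 change was 0.84 ± 0.48 and was not called (edgeR adjusted p = 0.293). The difference from st10.5 was 2.56 ± 0.88 on the log2 scale and was not called (edgeR adjusted p = 0.114); it was called with the experiment as a block (edgeR adjusted p = 0.016).

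The L copy, prickle2.L, had 22.6 and 24.1 CPM with nicd at st25, beside 19.2 and 21.5 in the controls. The log2 change of prickle2.L there was 0.21 ± 0.62 (95% interval from -1.07 to 1.48; edgeR adjusted p = 0.904), and the difference between the copies was not tested. At st16 both nicd libraries of prickle2.L, at 24.96 and 23.3 CPM, were below both controls, at 47.7 and 37.9, with a log2 change of -0.89 ± 0.62 (edgeR adjusted p = 0.465). At st32 they were above, at 9.97 and 12.3 against 1.69 and 4.86 CPM, with a log2 change of 1.79 ± 0.65 (edgeR adjusted p = 0.126; with the experiment as a block, adjusted p = 0.0451).

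For prickle3.L the nicd libraries gave 3.91 and 5.99 CPM at st10.5, 19.0 and 22.7 at st16, 40.9 and 27.5 at st25, and 13.3 and 12.3 at st32. They were above both controls at every stage (at st10.5 not after TMM scaling), by the widest margin at st25, where the controls were 14.5 and 14.3 CPM. The log2 rise at st25 was 1.26 ± 0.38 (edgeR adjusted p = 0.0298). The call was lost without the control of experiment 1 (1.30, edgeR adjusted p = 0.13) or 2 (1.218, edgeR adjusted p = 0.178), or without the nicd library of experiment 1 (0.90, edgeR adjusted p = 0.351), which was the higher of the pair.

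For vangl2.L the nicd libraries gave 114 and 119 CPM at st10.5, 111 and 75.04 at st16, 95.9 and 76.5 at st25, and 94.1 and 74.99 at st32. They lay between the controls at st10.5 and above both controls at each later stage. The log2 change was 0.65 ± 0.22 at st16 (edgeR adjusted p = 0.0609), 0.67 ± 0.22 at st25 (edgeR adjusted p = 0.0438) and 0.50 ± 0.22 at st32 (edgeR adjusted p = 0.233).

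The st25 call of vangl2.L is the least firm of the 4. It was lost with RLE factors (edgeR adjusted p = 0.0649), when genes with as little as 1 count were kept (0.168), with only the libraries of that stage (0.0636), with the reads of both vangl2 copies summed (0.67 ± 0.33, adjusted p = 0.211), and without the control of experiment 1 (log2 change 0.57, adjusted p = 0.253) or 2 (0.77, adjusted p = 0.115) or the nicd library of experiment 1 (0.46, adjusted p = 0.444). With the experiment as a block the st16 change was called as well (edgeR adjusted p = 0.0343), and with a block within each stage so was that of st32 (0.0472). For vangl2.S the nicd libraries gave 98.0 and 67.0 CPM at st25 and 63.8 and 65.1 at st32, all above the controls of those stages. Its log2 changes of 0.69 ± 0.47 and 0.68 ± 0.47 were not called (edgeR adjusted p = 0.394 and 0.548), and both were called with the experiment as a block within each stage (edgeR adjusted p = 0.00164 and 0.00286).

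The remaining copies were not called with nicd. For celsr2.L the nicd libraries were above both controls at st16, st25 and st32, with 198 and 164, 153 and 133, and 89.5 and 80.6 CPM, and log2 changes of 0.71 ± 0.26, 0.32 ± 0.26 and 0.41 ± 0.26 (edgeR adjusted p = 0.0852, 0.485 and 0.49). The first of these was called with the experiment as a block (edgeR adjusted p = 0.0339), and the last with a block within each stage (0.0328). For prickle1.S the nicd libraries gave 0.183 and 0.476 CPM at st16, below the controls of 1.25 and 1.11, and the lower one rests on 8 reads. Its log2 change of -1.94 ± 0.65 was not called (edgeR adjusted p = 0.059), although DESeq2 called it (adjusted p = 0.0247), as did edgeR with the experiment as a block within each stage (0.0321).

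At st25 and st32 prickle1.S was above the controls, at 1.71 and 2.10 and at 3.12 and 2.16 CPM, again not called (edgeR adjusted p = 0.437 and 0.304). For vangl1.L the 4 log2 changes lay between -0.20 and 0.15, and their 95% intervals lay within -0.72 and 0.67. For vangl1.S and prickle1.L the estimates changed sign between stages and none was called. At st32 vangl1.S had 73.7 and 52.3 CPM with nicd against 39.7 and 33.8, above both controls, with a log2 change of 0.76 (edgeR adjusted p = 0.466) that was called with the experiment as a block within each stage (adjusted p = 0.0282).

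**Figure D3:**
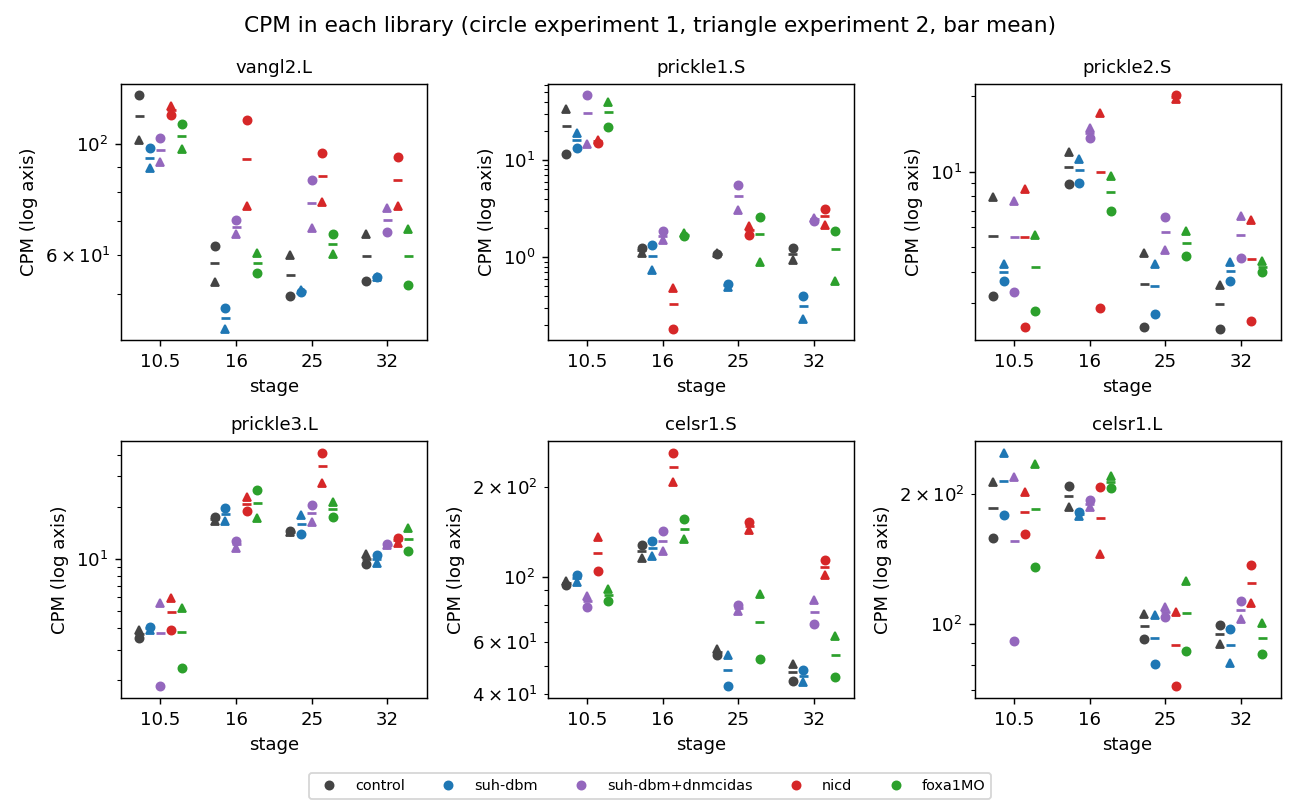
CPM (log axis) of vangl2.L, prickle1.S, prickle2.S, prickle3.L, celsr1.S and celsr1.L by stage in each of the 40 libraries, coloured by treatment, with circles for experiment 1, triangles for experiment 2 and bars for means. The nicd libraries of celsr1.S stand above all others at st16, st25 and st32, and the suh-dbm+dnmcidas libraries of prickle1.S stand above the other treatments at st25.

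Markers of several cell types also moved with nicd. At st25 the multiciliated markers summed to 13.3 to 13.7 CPM, against 662 to 686 in the controls, with 9 of 14 tested copies lower. The copies of gmnc, a gene that starts the multiciliated fate, were at 0 with nicd, but none was among those called and 1 was at 0 in the controls as well. The ionocyte markers summed to 21.2 to 55.0 CPM against 1620 to 1869, with 13 of 14 copies lower and atp6v0d2.S and rhcg.S at 0. Basal cell markers summed to 1688 to 1716 CPM against 750 to 793, with 2 of 9 copies higher.

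Neural markers summed to 22.0 to 22.3 CPM against 6.05 to 7.70, with 1 of 8 copies higher and 1 lower, and mesoderm markers to 61.6 to 203 CPM against 9.55 to 15.2, with none of 5 tested copies called. Goblet markers summed to 1431 to 2406 CPM against 5368 to 6396, with 1 of 6 tested copies lower, and small secretory markers to 5246 to 7754 against 12235 to 14968, with none of 7 called. The part of these shifts in the rises of the polarity genes was not tested. At st10.5 the multiciliated markers overlapped between nicd and control, at 83.1 to 118 and 80.7 to 170 CPM, and celsr1.S was not called. The ionocyte markers did not overlap there, at 23.8 to 28.2 against 39.9 to 198 CPM, with foxi1.S called lower and at 0.

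With Notch loss by suh-dbm no copy was called at any stage, and over all genes the test called 0.00316%, 0.00316%, 0% and 0% at st10.5, st16, st25 and st32, where 625, 671, 1124 and 810 genes had an unadjusted p under 0.05. DESeq2 called no copy either, and 1 of the 48 copy-by-stage tests had an unadjusted p under 0.05. That was prickle1.S at st32, with 0.402 and 0.230 CPM against 1.25 and 0.927, a log2 change of -1.78 ± 0.64 that was not called (edgeR adjusted p = 1). At st25 it was also below both controls, at 0.529 and 0.494 against 1.08 and 1.10 CPM, and prickle1.L was below them at st25 and st32, at 3.71 and 2.99 and at 3.89 and 4.23 CPM. For celsr1.S the 95% interval of the log2 change with suh-dbm at st25 was from -0.65 to 0.28, and for vangl2.L it was from -0.53 to 0.36.

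With dnmcidas added to suh-dbm, prickle1.S was higher. At st25 the suh-dbm+dnmcidas libraries gave 5.50 and 3.10 CPM against 0.529 and 0.494 with suh-dbm alone, and at st32 they gave 2.38 and 2.54 against 0.402 and 0.230. The groups did not overlap at either stage, nor did they overlap with the controls of about 1 CPM. The log2 rise over suh-dbm was 2.78 ± 0.64 at st25 (edgeR adjusted p = 0.00662), where 1 of 12 copies was called against 6% of all genes (2.09% higher), and 2.78 ± 0.65 at st32 (edgeR adjusted p = 0.0111), where 1 of 12 was called against 2.92% (0.6% higher). No copy was called at st10.5 (0.00632% of all genes) or st16 (3.24%). The log2 difference between the changes at st25 and st10.5 was 1.92 ± 0.84, which did not pass (edgeR adjusted p = 0.333; 2.51% of all genes called).

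At st25 the call of prickle1.S was lost without the suh-dbm+dnmcidas library of experiment 1 (log2 rise 2.33, edgeR adjusted p = 0.0967) or the suh-dbm library of experiment 1 (2.89, adjusted p = 0.0689) or 2 (2.69, adjusted p = 0.0922). At st32 it was lost without the suh-dbm+dnmcidas library of experiment 2 (2.77, edgeR adjusted p = 0.063) or the suh-dbm library of experiment 1 (3.22, adjusted p = 0.0597) or 2 (2.42, adjusted p = 0.207), and with only the libraries of that stage (0.0695). With the reads of prickle1.L and prickle1.S summed, the log2 change was 0.71 ± 0.63 at st25 and 0.20 ± 0.62 at st32, and neither was called (edgeR adjusted p = 0.624 and 1).

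The L copy had 4.29 and 2.43 CPM with suh-dbm+dnmcidas at st25, beside 3.71 and 2.99 with suh-dbm. Multiciliated markers summed to 16.2 to 22.8 CPM with suh-dbm+dnmcidas and 761 to 829 with suh-dbm at st25, with 10 of 14 tested copies lower and tekt2.L, one of them, at 0. The gmnc.S copy was at 0 in both groups. Ionocyte markers summed to 5239 to 5640 and 4127 to 5717 CPM, with none of 14 called. Neural markers summed to 19.0 to 24.6 against 4.10 to 4.62 CPM, with both sox3 copies called higher among 8. Their part in the rise of prickle1.S was not tested.

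Against the uninjected controls, no copy was called with suh-dbm+dnmcidas at st10.5, st16, st25 or st32, where edgeR called 0.0126%, 4.12%, 5.59% and 2.74% of all genes; DESeq2 called none of the copies, and 3 of the 48 copy-by-stage tests had an unadjusted p under 0.05. For prickle1.S at st25 the log2 change was 1.72 ± 0.60 (edgeR adjusted p = 0.099), called with the experiment as a block within each stage (adjusted p = 0.0356). The L copy went the other way there, at 4.29 and 2.43 CPM against 7.52 and 6.0 in the controls. Its log2 change was -1.27, also not called. With the reads of both prickle1 copies summed, the log2 change was -0.30 ± 0.62 and was not called (edgeR adjusted p = 0.88). For celsr1.S at st32 the values were 68.9 and 83.0 CPM, above the controls of 44.5 and 50.7, with a log2 change of 0.52 ± 0.23 that was not called (edgeR adjusted p = 0.388).

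Knockdown of foxa1, a gene of the small secretory cells, called no copy at any stage, by edgeR or DESeq2, with 0.0158%, 0.0442%, 0.0284% and 0.0126% of all genes called, and none of the 48 copy-by-stage tests had an unadjusted p under 0.05. The log2 changes of the 12 copies lay between -0.50 and 0.37 at st10.5, -0.38 and 0.47 at st16, -0.27 and 0.71 at st25, and -0.87 and 1.01 at st32. The precision differed between copies: at st25 the 95% interval of prickle1.L was from -1.84 to 1.30 and that of vangl2.L from -0.22 to 0.68.

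The 2 experiments differed in several copies at the earliest stage. With the experiment as a block within each stage, 8 of the 12 copies differed between the experiments at st10.5, against 30.8% of all genes. At st16 it was 4 of 12 against 21.6%, at st25 none against 15.1%, and at st32 1 of 12 against 23.2%. The 5 libraries of an experiment and stage share 1 female and 1 fertilization, so these tests compare 2 batches of embryos and not females in general.

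**Figure D4:**
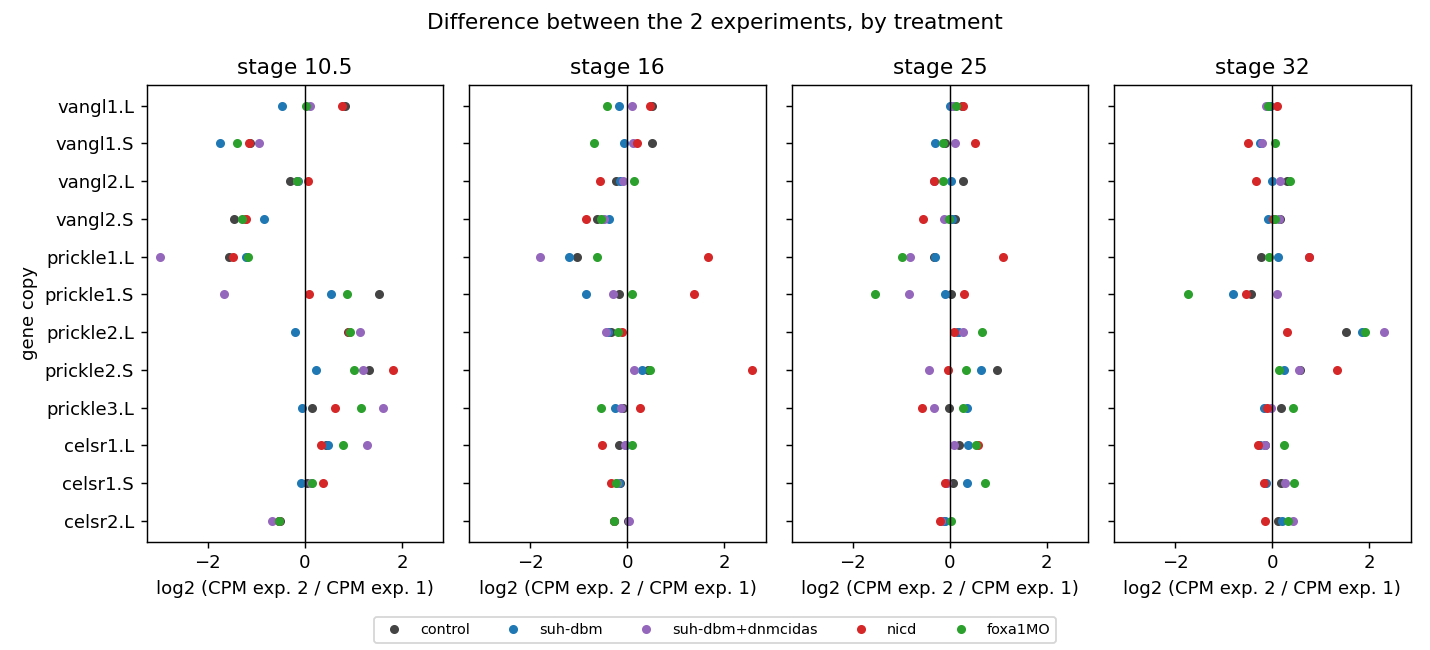
Log2 ratio of the CPM in experiment 2 to that in experiment 1 for the 12 copies at each stage, with 1 point for each of the 5 treatments. At st10.5 all 5 points of vangl1.S, vangl2.S, prickle1.L and celsr2.L lie below 0, and all 5 of celsr1.L and prickle2.S lie above 0.

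At st10.5 vangl2.S had 132 to 216 CPM in the 5 libraries of experiment 1 (median 169) and 64.8 to 82.0 in those of experiment 2 (median 73.8). For vangl1.S the ranges were 16.2 to 22.3 and 6.59 to 8.60 CPM, and for prickle1.L they were 62.3 to 195 and 24.7 to 45.9 CPM. None of these ranges overlapped, whatever had been injected. The log2 difference of experiment 2 from experiment 1 was -1.20 ± 0.10 for vangl2.S, -1.25 ± 0.15 for vangl1.S and -1.65 ± 0.32 for prickle1.L.

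The other direction was seen in celsr1.L, with 90.9 to 179 CPM in experiment 1 and 203 to 250 in experiment 2, and in prickle2.S, with 2.42 to 3.67 and 4.31 to 8.54 CPM. Their log2 differences were 0.67 ± 0.12 and 1.14 ± 0.29. The remaining copies called at st10.5 were prickle2.L (0.76 ± 0.20) and prickle3.L (0.70 ± 0.20), higher in experiment 2, and celsr2.L (-0.54 ± 0.08), lower there. The other copies of vangl1, vangl2 and prickle1 had log2 differences between the experiments of 0.27 ± 0.15 for vangl1.L, -0.13 ± 0.11 for vangl2.L and 0.32 ± 0.33 for prickle1.S beside those above; the differences between copies were not tested. At st32 the only copy called was prickle2.L, with 1.41 to 9.97 CPM in experiment 1 and 4.86 to 12.3 in experiment 2 and a log2 difference of 1.52 ± 0.22.

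Over the 20 group means the copies fell into patterns that are given as a description, since groups share stages and embryos. The log2 CPM of vangl1.L followed that of vangl1.S (Pearson r = 0.978), and prickle3.L followed both (r = 0.942 and 0.945). The prickle1 copies followed each other (r = 0.863) and ran opposite to vangl1.L (r = -0.893 for prickle1.L and -0.848 for prickle1.S). Of the other pairs, vangl2.S and celsr2.L were the most alike (r = 0.830).

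Among 14528 further genes (14529 for prickle3.L and celsr2.L) with a symbol and a mean log2 CPM of at least 1, the closest in pattern over the 20 group means were dse.S for vangl1.L (r = 0.989), arhgef16.L for vangl1.S (0.976), cnfn.1.L for vangl2.L (0.923) and ptgs2.L for vangl2.S (0.976). They were xpo6.S for prickle1.L (0.982), fut8.S for prickle1.S (0.955), lmo4.2.S for prickle2.L (0.952), zcchc17.L for prickle2.S (0.870) and arhgef3.2.L for prickle3.L (0.978). For the celsr copies they were ralb for celsr1.L (0.938), c9orf114.L for celsr1.S (0.964) and arhgap11a.1.L for celsr2.L (0.953).

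Other genes of the pathway were described from 6 lists of 70 tested copies. In the controls 15 rose (21.4%, against 22.2% of all genes) and 28 fell (40%, against 22.6%) from st10.5 to st16. With nicd 3 rose (4.29%, against 2.71% of all genes) and 5 fell (7.14%, against 7.22%) at st16. At st25, 10 rose (14.3%, against 5.21%) and 2 fell (2.86%, against 7.1%), and at st32, 14 rose (20%, against 1.78%) and 1 fell (1.43%, against 4.05%). The median log2 change of the 70 copies with nicd was -0.0049 at st25 and 0.27 at st32. None was called at st10.5. With suh-dbm and with foxa1MO none was called at any stage. With suh-dbm+dnmcidas against the controls, 0 rose and 4 fell at st16 (0.398% and 3.72% of all genes), 4 rose and 1 fell at st25 (1.34% and 4.26%), and 2 rose and 1 fell at st32 (0.442% and 2.3%); none was called at st10.5.

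The receptors and ligands held most of the rises. The Frizzled receptor copy fzd7.S had 20.1 and 11.3 CPM with nicd at st25 and 33.1 and 18.0 with suh-dbm+dnmcidas, against 0.710 and 0.958 in the controls. Both injected groups were far above the controls, with log2 rises of 4.26 ± 0.73 (edgeR adjusted p = 0.000189) and 4.69 ± 0.74 (edgeR adjusted p = 0.000107). The fzd7.L copy rose by 1.85 ± 0.42 and 2.07 ± 0.42 and fzd6.S by 1.43 ± 0.37 and 1.24 ± 0.37 on the log2 scale. So 3 of 11 copies of frizzled and dishevelled partners were higher in each of these comparisons, which share their controls, against 5.21% and 1.34% of all genes. The median log2 change of the list was -0.24 with nicd and -0.25 with suh-dbm+dnmcidas. Its summed CPM did rise with nicd, to 389 to 395 against 160 to 208 in the controls. With suh-dbm+dnmcidas the sum was 178 to 203 CPM, within the range of the controls. With a block within each stage, 4 copies were called higher and 2 lower with nicd. With suh-dbm+dnmcidas 3 were called higher and 2 lower in that fit. The calls of fzd7.S were kept without any single library. With nicd, that of fzd7.L was lost without the control or the nicd library of experiment 1 and that of fzd6.S without the control of experiment 2 (edgeR adjusted p up to 0.148 and 0.128). With suh-dbm+dnmcidas, that of fzd7.L was lost without the control of experiment 1 (0.0755) and that of fzd6.S, at an adjusted p of 0.0496, without any 1 of the 4 libraries (up to 0.315).

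Of 17 ligand and co-receptor copies, 5 rose with nicd at st25, among them wnt5a.S, a ligand of non-canonical Wnt signalling, with 4.42 and 6.63 CPM against 0.170 and 0.502 and a log2 rise of 4.06 ± 0.99 (edgeR adjusted p = 0.00659; 0.111 without the control of experiment 1). The call of wnt5a.L, at 12.8 and 32.5 against 0.0309 and 0.593 CPM, was lost without any 1 of the 4 libraries (edgeR adjusted p up to 0.222). The 5 copies that rose at st25 stand against 5.21% of all genes called higher. At st32, 10 of the 17 were higher, against 1.78% of all genes.

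The Fat and Dachsous system acts in parallel to the core genes in flies. Both copies of its kinase gene fjx1, among 7 copies, rose with nicd at st25, against 5.21% of all genes called higher. For fjx1.S the nicd libraries gave 45.0 and 53.0 CPM against 12.04 and 13.8, with a log2 rise of 1.93 ± 0.54 (edgeR adjusted p = 0.0178). Its call was lost without any 1 of the 4 libraries (edgeR adjusted p up to 0.127), and that of fjx1.L without either control or the nicd library of experiment 1 (up to 0.24). Among 7 tested copies of ciliogenesis effectors, wdpcp.L and fuz.L were lower, against 7.1% of all genes, and none was higher, against 5.21%. For wdpcp.L the values were 1.59 and 2.73 CPM against 12.8 and 14.1, a log2 change of -2.64 ± 0.43 (edgeR adjusted p = 0.000101), and with suh-dbm+dnmcidas the log2 change was -3.33 ± 0.45. Actin effectors (13 copies) and trafficking and turnover genes (15 copies) held no call with nicd at st25, against 12.3% of all genes called.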

How the data were processed

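The deposited values are raw counts of reads per gene ID, made by the authors with STAR 2.6.0b-1 and featureCounts 1.6.3, per the submitters' processing notes, from non-stranded libraries sequenced in 2 runs, per the labels' protocols. The genome build and annotation are not given in the sources used here, so no coordinates or sequences are reported. The authors' DESeq2 comparisons were not used.

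Counts of the 40 libraries were joined by gene ID. Their headers carry a source dataset number, 604 or 630, whose meaning is not known. In experiment 1 the controls of st10.5 and st16 carry 630 and the other libraries 604. In experiment 2 the control and nicd libraries of st10.5 carry 604 and the others 630. The part of this split in the differences was not tested. The symbol table names 48349 IDs, and 3671 were named through a RefSeq table (assembly v10.1), used for names only. edgeR 4.0.16 (R 4.3.3) was run on the counts as deposited in 1 quasi-likelihood fit of 20 groups (filterByExpr at its defaults of 10 counts a library and 15 in total, TMM factors, 20 residual degrees of freedom), which kept 31648 genes. It gave 23 comparisons within and between stages and 5 interaction tests. The fit was also run on simulated counts with the same dispersion for every gene and no difference between experiments. That run cannot show how the fit behaves with the differences between experiments seen here. CPM use the library totals as counted, without TMM factors, and correlations use TMM-scaled log2 CPM with a prior count of 2. The 2 libraries of a group come from embryos of different females, so p-values cover only the spread between 2 such samples a group. Experiments mark shared females, so the numbers pair the libraries; the difference between experiments correlated over genes at r = 0.166 to 0.653 between treatments of the same stage in 40 of 40 pairs. Alternatives were an experiment block, a block within each stage, RLE factors, DESeq2 1.42.0, every gene with at least 1 count, only the libraries of a stage, L and S copies summed, and leaving out each library with the full fit's dispersions kept; a group left with 1 library is then assumed to vary like the others. The block within stages and the alternatives for the interaction other than the block were added after seeing the data. Within a stage that block pairs the libraries, but between stages it compares the fitted levels of experiment 1 only. The members and lists were chosen with earlier results of these data known. Every member is named; of the other pathway copies, those called at stage 25 with nicd or suh-dbm+dnmcidas could be named, up to 3 a list by size of change, and of like patterns the closest of 3.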

Additional observations from a re-analysis of the deposited data

Results flagged for a closer look

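The rise of celsr1.S with nicd differed between stages. It was 1.14 larger on the log2 scale at st25 than at st10.5 (edgeR interaction test, adjusted p = 0.0389). Both nicd libraries exceeded both controls at each stage, and the call of the difference was lost under RLE factors (adjusted p = 0.0977) and when genes with as little as 1 count were kept (0.104). Without single libraries the log2 difference ranged from 0.92 to 1.37. The call was lost without any of the controls of these stages, and without either nicd library of experiment 1. With the reads of celsr1.L and celsr1.S summed it was 0.57 ± 0.36 and was not called (edgeR interaction test, adjusted p = 0.513).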

How the results depend on the processing

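Of 20 single-copy results called, the 203 alternatives computed kept direction and call in 160 and lost the call in 43, and none of these 20 changed direction. The fit with L and S summed works on genes and not copies, so it is not among the 203. The block within each stage is among them, also for the control steps, where it does not estimate the same change. Adding the experiment to the fit raised several counts. A replicate block for the experiment gave 9 calls with nicd in place of 6 and 15 steps between control stages in place of 11. It gave 2 calls of stage dependence in place of 1. That block assumes the same difference between the experiments at every stage, and so does not pair the libraries stage by stage. A block within each stage gave 15 with nicd, 1 with suh-dbm+dnmcidas against control in place of 0, and 3 of stage dependence. It gave 21 between control stages, but it takes those steps at the fitted level of experiment 1 only. The 21 and the 11 therefore do not count the same changes. With L and S summed, the counts were 1 for nicd, 0 for suh-dbm+dnmcidas against suh-dbm (2 by copy), 7 between control stages and 0 of stage dependence, over 7 genes in place of 12 copies. The call for nicd was prickle3 at st25, found as an L copy only, so no reads were summed for it. No gene found in both copies was called with nicd in that fit. Fitting only the libraries of a stage gave 1 for suh-dbm+dnmcidas against suh-dbm. Stage dependence gave 0 with RLE factors, 0 with every gene of at least 1 count and 2 with DESeq2; the cause was not tested.

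Without each library in turn, the counts ranged from 3 to 7 for nicd, 8 to 13 between control stages, 1 to 2 for suh-dbm+dnmcidas against suh-dbm and 0 to 2 of stage dependence, and stayed 0 for the other treatments. Fewer samples enter these fits. Among single-copy results called without a block or with either block, direction turned for vangl2.S only, without the control of experiment 1 at st10.5. Neither of its 2 results was called without a block. Over the libraries left out in turn, its log2 change in the control step to st16 ranged from -1.10 to 0.43, and its interaction with nicd from -0.064 to 1.56. Results called in none of these fits are not covered here. Against TMM, RLE factors moved the median log2 change of all genes by 0.103 for nicd and 0.142 for suh-dbm at st10.5, and by -0.157 in the nicd interaction. At st16 prickle1.S with nicd rests on as few as 8 reads a library.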
